A study of Mus musculus with 18 samples.

Results

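The 10 genes *Siglech*, *Bst2*, *Cd7*, *Cd300c*, *Klrd1*, *Lag3*, *Cd4*, *Cd22*, *Pld4* and *Lair1* encode membrane proteins known from plasmacytoid dendritic cells (pDCs), most of them on the cell surface. They were chosen by name, without a threshold on a measured value but with earlier results of these data known. Counts of members set beside the share of all genes are therefore descriptive. All 10 were listed among the 19710 genes of the MPP table, the 19710 of the CD115- CDP table and the 18378 of the CLP table. Each of the 10 had a value above 0 in all 18 libraries. RNA was sequenced from multipotent progenitors (MPPs), CD115- common DC progenitors (CD115- CDPs) and common lymphoid progenitors (CLPs), sorted from the bone marrow of C57BL/6 mice aged 6 to 8 weeks. WT mice were *Trim33* fl/fl without Cre, and KO mice were *Trim33* fl/fl with Cre-ERT2, a Cre recombinase that tamoxifen activates throughout the body, so both genotypes carried the floxed allele. Tamoxifen (2 mg a day over 5 days) was given to both, and cells were taken 7 days after that. WT and KO were each represented by 3 libraries in a population. The sources used here do not say whether a library came from 1 mouse or from several, so the p-values measure the spread between these libraries.

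pDCs sense viral nucleic acids through endosomal Toll-like receptors and release large amounts of type I interferon, and their precursors are found among lymphoid as well as DC-committed progenitors. Many of their surface proteins tune that response. Receptors such as SIGLECH signal through adaptors that carry an activating motif (ITAM), while LAIR1 and CD22 carry inhibitory motifs (ITIM) that recruit phosphatases. The transcription factors TCF4, SPIB, RUNX2 and IRF8 are known regulators of pDC genes.

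The values are FPKM as deposited, read counts scaled to transcript length and to the depth of the library, so that levels of different genes can be set side by side. The steps between the lowest values placed the depth at about 19280000 to 21320000 mapped reads per library. *Trim33* (chromosome 3 of GRCm38, 103279293 to 103358770), the gene deleted, was examined first. MPPs had it at 10.4, 10.1 and 8.78 FPKM in WT libraries 1 to 3 and at 9.71, 11.7 and 4.80 FPKM in the libraries labelled KO. The library labelled KO 2 thus lay above all WT libraries, and KO 1 lay below WT 1 and WT 2 but above WT 3. In CD115- CDPs WT libraries had 14.3, 15.2 and 8.27 FPKM and KO-labelled libraries 9.64, 8.28 and 4.03 FPKM, and in CLPs the values were 12.4, 7.01 and 8.86 FPKM against 7.52, 5.6 and 7.66 FPKM. The groups overlapped in each population, and *Trim33* was not called in any of them (limma adjusted p of 0.63, 0.528 and 0.255). With the replicate block its adjusted p in CD115- CDPs was 0.0258, at a log2 fold change of -0.74 that is short of the minimum for a call. Exons 2 to 4, which the deletion removes, hold 397 of the 8875 bases of its longest transcript, or 4.47%. The FPKM thus rest almost wholly on exons outside the deleted part and are a weak check of the deletion, which the study assessed by other assays not analysed here. The genotypes are given as labelled.

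The members lie on chromosomes 6, 7, 8, 11 and 12. *Lag3* (chromosome 6, 124904359 to 124912434) and *Cd4* (124864693 to 124888247) are adjacent, 16.11 kb apart with 0 RefSeq genes between them. The other members are *Klrd1* (chromosome 6, 129588092 to 129598775), *Siglech* (chromosome 7, 55768154 to 55779448), *Cd22* (chromosome 7, 30865404 to 30880342), *Lair1* (chromosome 7, 4007073 to 4073567), *Bst2* (chromosome 8, 71534255 to 71537472), *Cd7* (chromosome 11, 121036747 to 121039478), *Cd300c* (chromosome 11, 114956105 to 114960507) and *Pld4* (chromosome 12, 112760446 to 112768986), all on GRCm38. RefSeq promoter sequence, from 250 bases before to 50 bases after the start site, was at hand for 6 of the 10. These are *Siglech*, *Bst2*, *Cd300c*, *Cd22*, *Pld4* and *Lair1*. Both strands were searched for letters that IRF, ETS and E-protein factors are known to bind.

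The paired IRF half-sites, GAAA and GAAA with any 2 bases between them, occurred in 2 of the 6 promoters, *Bst2* and *Cd300c*, and in 3.4% of 32851 promoters. Their 250 bases before the start site are shown because these were the promoters with that match, with the matching letters in capitals. In *Bst2* the matches begin at -130 and -124 and overlap. In *Cd300c* the match begins at -231. The third sequence, of *Siglech*, shows its E-boxes (CANNTG) in capitals, at -235, -56 and -20. E-boxes occurred in 6 of the 6 promoters and in 72.3% of all. The stretches are chr8:71537473-71537722 (minus strand, *Bst2*), chr11:114960508-114960757 (minus strand, *Cd300c*) and chr7:55767934-55768183 (plus strand, *Siglech*) on GRCm38.p6, written 5′ to 3′.
Bst2: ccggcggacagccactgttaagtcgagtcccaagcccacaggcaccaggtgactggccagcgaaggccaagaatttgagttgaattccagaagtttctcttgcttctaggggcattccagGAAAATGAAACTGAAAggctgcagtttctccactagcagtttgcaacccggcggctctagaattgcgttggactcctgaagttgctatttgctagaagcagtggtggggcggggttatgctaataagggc
Cd300c: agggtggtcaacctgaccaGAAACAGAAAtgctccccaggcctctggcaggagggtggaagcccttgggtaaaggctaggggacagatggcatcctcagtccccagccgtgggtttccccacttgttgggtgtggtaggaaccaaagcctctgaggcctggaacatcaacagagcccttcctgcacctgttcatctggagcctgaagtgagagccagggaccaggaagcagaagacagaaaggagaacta
Siglech: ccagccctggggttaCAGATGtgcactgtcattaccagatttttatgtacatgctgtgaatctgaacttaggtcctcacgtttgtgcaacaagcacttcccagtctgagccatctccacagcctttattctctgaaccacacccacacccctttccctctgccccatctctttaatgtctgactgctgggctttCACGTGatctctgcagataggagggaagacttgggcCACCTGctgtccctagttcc

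The ETS core GGAA was in 6 of the 6 promoters and in 96.0% of all, and the RUNX letters TGTGGT in 2 of the 6, *Siglech* and *Cd300c*, and in 16.8% of all. The ETS-IRF composite, GGAA and GAAA with any 2 bases between them, was in 0 of the 6 and in 2.7% of all. The GGAA core is part of that composite. A match describes letters only, and the search covered only the window of 300 bases.

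The summed FPKM of the 10 genes came to 157 ± 10.5 for WT MPPs, 494 ± 88.1 for WT CD115- CDPs and 1111 ± 52.7 for WT CLPs (SD, n = 3). For KO-labelled cells it came to 116 ± 8.25, 155 ± 7.8 and 127 ± 12.8 in the same order. *Bst2*, which encodes tetherin, an interferon-induced protein that holds budding virus at the cell membrane and the antigen of the pDC antibody PDCA-1, made up between 45.1% (WT CLPs) and 79.1% (KO-labelled MPPs) of that sum. Expression of the list was thus highest in WT CLPs, and the KO-labelled sums of the 3 populations lay within a much narrower range than the WT sums. The populations are in separate tables, so levels between them are described and were not tested.

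**Figure D1:**
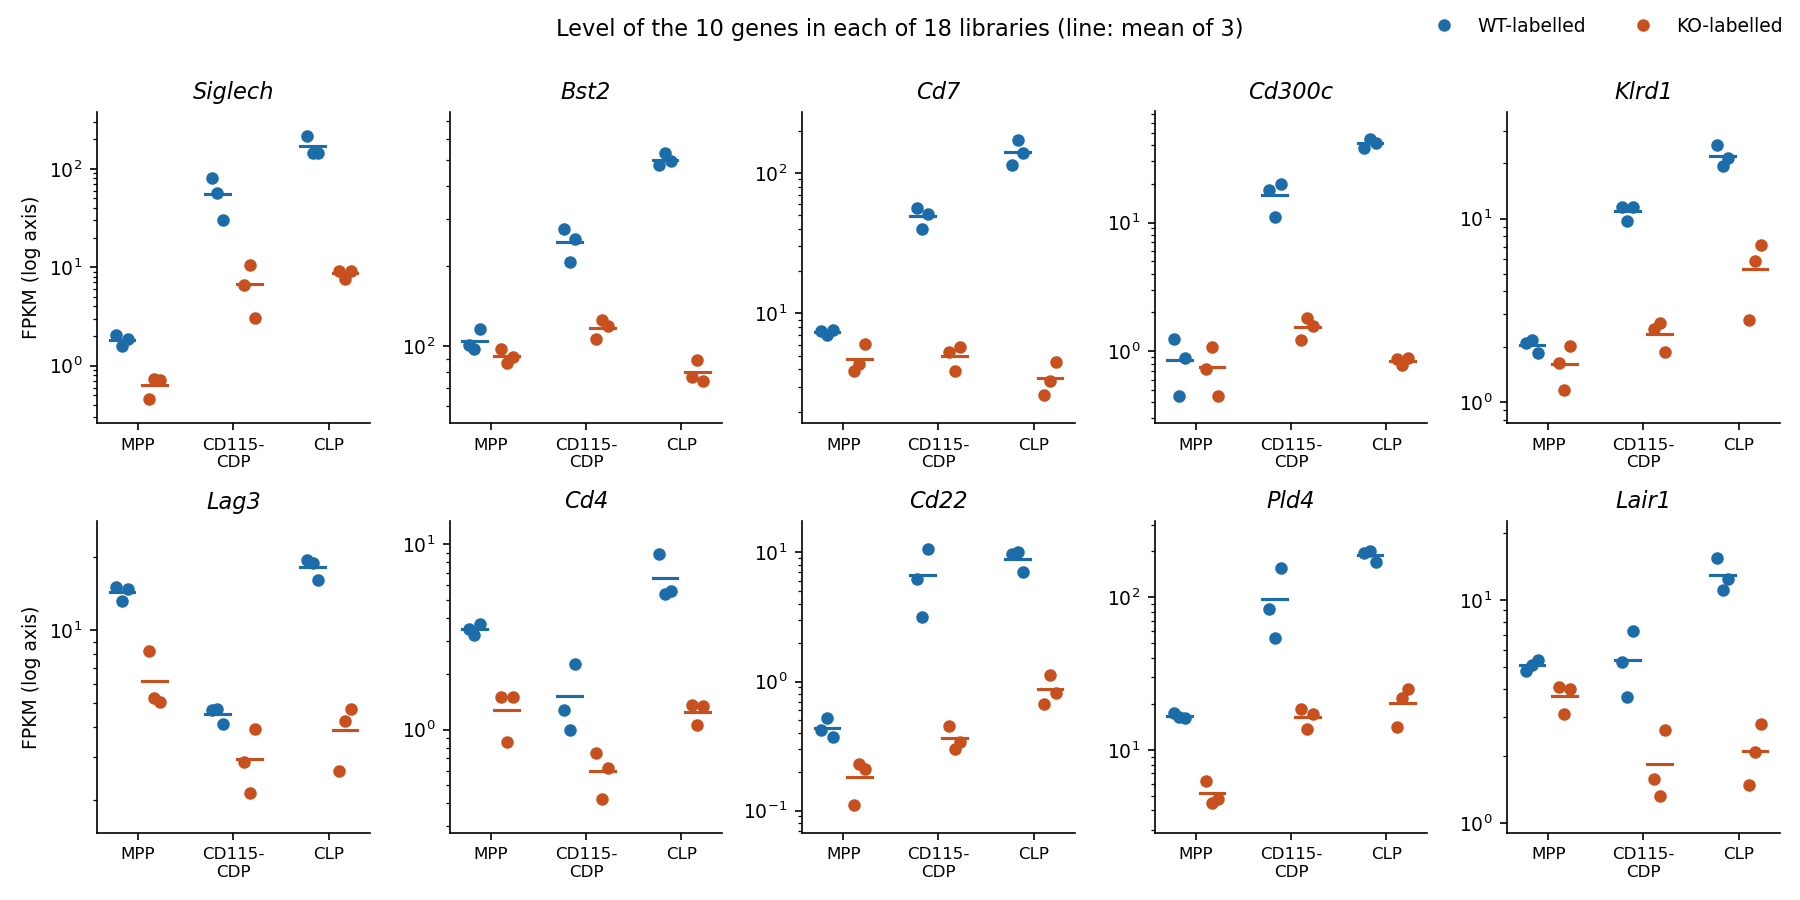
FPKM (log axis) of each of the 10 genes in each of the 18 libraries, WT-labelled in blue and KO-labelled in orange, with the mean of 3 libraries as a line. In CLPs and in CD115- CDPs all 10 genes had WT and KO-labelled libraries that did not overlap, and in MPPs *Cd300c* and *Klrd1* overlapped.

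The question asked of each population was which of the 10 genes differ between genotypes. In CLPs all 10 were called lower in KO-labelled libraries with limma on log2(FPKM + 1), where a call needs an adjusted p of at most 0.05 and a log2 fold change of at least 1 in size. Of the 12339 genes tested in CLPs 2.84% were called lower. The groups did not overlap for any of the 10, against 18.6% of tested genes with all KO-labelled libraries below WT. The median log2 fold change of the members was -2.52 and that of all tested genes 0.0076. In bulk RNA, fewer cells with a transcript and less of it per cell cannot be told apart.

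*Siglech*, the sialic-acid-binding lectin that marks mouse pDCs and signals through the ITAM adaptor DAP12, was at 216, 145 and 146 FPKM in WT CLPs and at 9.11, 7.67 and 9.24 FPKM in the KO-labelled libraries. The KO-labelled libraries lay close together and far below the lowest WT library. *Cd300c*, an activating member of the CD300 family of lipid-binding receptors, had 37.9, 44.7 and 41.6 FPKM against 0.87, 0.78 and 0.88 FPKM. With a WT mean 49.1 times that of the KO-labelled libraries it showed the widest gap on the FPKM scale. Its KO-labelled values stand on about 10.1 to 11.2 reads, so counting error is large there. The log2 fold changes were -4.11 ± 0.16 (SE, adjusted p = 2.73e-06) for *Siglech* and -4.52 ± 0.11 (adjusted p = 5.37e-07) for *Cd300c*. *Klrd1* encodes CD94, the partner chain of NKG2 receptors. It went from 25.3, 19.3 and 21.3 FPKM to 2.80, 5.89 and 7.14 FPKM, a log2 fold change of -1.93 ± 0.26 (adjusted p = 0.00181). The KO-labelled libraries varied more than the WT ones here, with a coefficient of variation of 42.3% against 13.8%.

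The 2 receptors with inhibitory motifs were lower as well. *Cd22*, a sialic-acid-binding lectin best known from B cells, was at 9.72, 10.1 and 7.05 FPKM in WT and at 0.67, 1.13 and 0.82 FPKM in KO-labelled CLPs (log2 fold change -2.40 ± 0.16, adjusted p = 3.94e-05). *Lair1*, a collagen receptor of many leukocytes, had 15.4, 11.1 and 12.4 FPKM against 1.48, 2.09 and 2.78 FPKM (log2 fold change -2.18 ± 0.18, adjusted p = 0.000135). In both genes the groups were well apart, with the lowest WT library far above the highest KO-labelled one.

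Of the coreceptors and other immunoglobulin-fold proteins, *Cd7*, a receptor of T and NK cells and early lymphoid cells, was at 115, 171 and 138 FPKM in WT CLPs and at 2.65, 3.31 and 4.54 FPKM in the KO-labelled ones. Its log2 fold change of -4.98 ± 0.19 (adjusted p = 1.98e-06) ranked 2 from the lowest of all tested genes. *Lag3*, which binds MHC class II, had 19.4, 19.0 and 16.2 FPKM against 2.64, 4.24 and 4.73 FPKM. *Cd4*, the class II coreceptor that mouse pDCs also carry, had 8.82, 5.42 and 5.59 FPKM against 1.35, 1.06 and 1.34 FPKM. Both neighbours on chromosome 6 were lower, by log2 fold changes of -2.0 ± 0.18 (*Lag3*, adjusted p = 0.00019) and -1.73 ± 0.18 (*Cd4*, adjusted p = 0.000465). On log2(FPKM + 1) *Cd4* had the smallest change of the 10. That order does not hold on FPKM, where KO-labelled means were 18.9% of WT for *Cd4*, 21.25% for *Lag3* and 24.0% for *Klrd1*. *Bst2* was at 479.7, 529 and 495 FPKM against 76.6, 89.3 and 73.9 FPKM. *Pld4*, an endolysosomal exonuclease anchored in the membrane that digests single-stranded nucleic acid, was at 196, 201 and 169.7 FPKM against 14.2, 21.7 and 25.0 FPKM. These 2 had the highest KO-labelled levels of the 10 and log2 fold changes of -2.64 ± 0.11 (*Bst2*, adjusted p = 3.08e-06) and -3.19 ± 0.19 (*Pld4*, adjusted p = 1.79e-05). With the replicate number as a block 10 members were called in CLPs too, where 3.11% of all genes were.

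**Figure D2:**
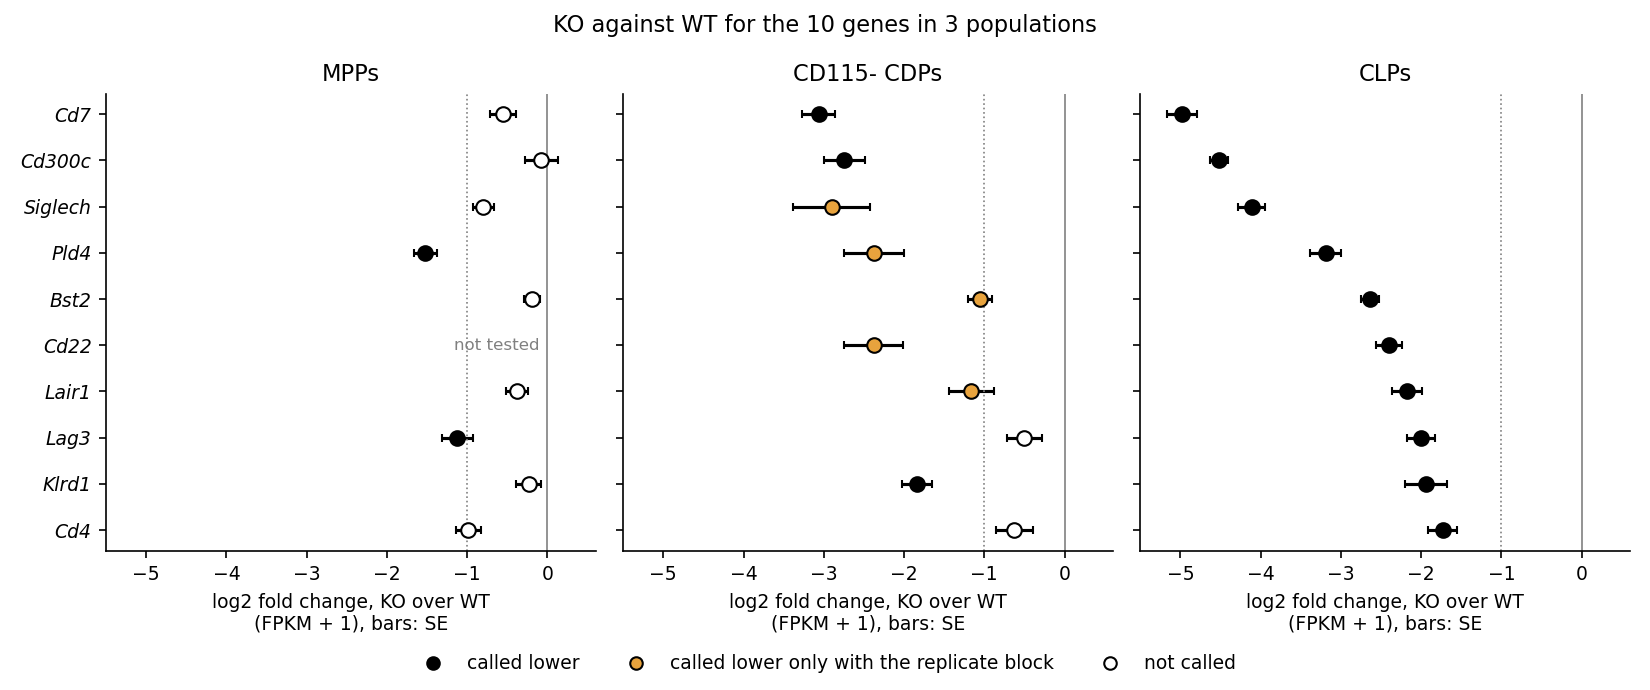
Log2 fold change of KO-labelled over WT libraries, on log2(FPKM + 1) with SE bars, for each member in the 3 populations. Filled points were called lower, orange points were called lower only in the fit with the replicate block, and the dotted line marks a log2 fold change of -1. CLPs hold 10 filled points, from -1.73 (*Cd4*) to -4.98 (*Cd7*).

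In CD115- CDPs each of the 10 genes was lower in all 3 KO-labelled libraries than in any WT library, as were 10.6% of tested genes. Without a block 3 members were called lower, *Cd7*, *Cd300c* and *Klrd1*, where 0.0654% of the 12229 genes tested were. Same-numbered libraries deviated together in this population (r of 0.437 to 0.79), but so did WT 2 with KO 1 (0.663) and WT 1 with KO 2 (0.381). The numbers thus set replicate 3 apart from 1 and 2 and do not establish 3 matched pairs. With the replicate number as a block 8 members were called lower, where 1.46% of all genes were. The 5 added were *Siglech*, *Bst2*, *Cd22*, *Pld4* and *Lair1*. *Cd22* passed the filter here through its WT libraries, with a KO-labelled mean of 0.363 FPKM. The median log2 fold change of the members was -2.10 and that of all tested genes -0.0748. Without the block the count depends on each library. It was 0 without WT 1, WT 2, KO 1 or KO 2, fits in which 0 of all tested genes were called lower, and 1 without WT 3 or KO 3, where 5 and 3 of all tested genes were, against 8 with all libraries. These counts follow the whole fit and say nothing particular of the members. At an unadjusted p under 0.05 limma found 8 or 9 members lower in the 4 fits with a count of 0, and 2.61% to 6.26% of all genes.

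*Cd7* was at 56.4, 39.8 and 50.9 FPKM in WT and at 5.28, 3.89 and 5.78 FPKM in KO-labelled CD115- CDPs, a log2 fold change of -3.06 ± 0.21 (adjusted p = 0.0117). *Cd300c* had 17.99, 11.1 and 19.9 FPKM against 1.22, 1.82 and 1.56 FPKM (-2.74 ± 0.25, adjusted p = 0.0355), and *Klrd1* 11.6, 9.69 and 11.6 FPKM against 2.51, 2.70 and 1.87 FPKM (-1.84 ± 0.18, adjusted p = 0.0401). In these 3 genes the WT replicates lay close together beside the distance to the KO-labelled ones. *Siglech* varied more, and replicate 3 was its lowest library in both genotypes, with 80.3, 56.8 and 30.4 FPKM in WT and 6.63, 10.4 and 3.05 FPKM in KO-labelled libraries. It differed by -2.90 ± 0.48 on the log2 scale, which gave an adjusted p = 0.162 without the block and 0.00262 with it.

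Replicate 3 stood apart in CD115- CDPs. *Pld4* was at 83.4, 54.1 and 155.7 FPKM in WT and at 18.6, 13.8 and 17.3 FPKM in KO-labelled libraries. *Cd22* was at 6.27, 3.16 and 10.7 FPKM against 0.45, 0.30 and 0.34 FPKM. *Lair1* was at 5.26, 3.70 and 7.30 FPKM against 1.58, 1.33 and 2.63 FPKM. WT replicate 3 was thus the highest for these 3 genes and the lowest for *Siglech*. With the block the adjusted p was 0.00645 for *Pld4*, 0.011 for *Cd22*, 0.0111 for *Lair1* and 0.0138 for *Bst2*, which had 275, 208 and 253 FPKM against 107, 125 and 119 FPKM. Without the block these 4 had adjusted p of 0.141, 0.138, 0.307 and 0.107. When replicate 3 of both genotypes was left out, an alternative chosen after the data were seen, the same 8 members were called lower without a block, and 1.29% of all genes were.

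**Figure D3:**
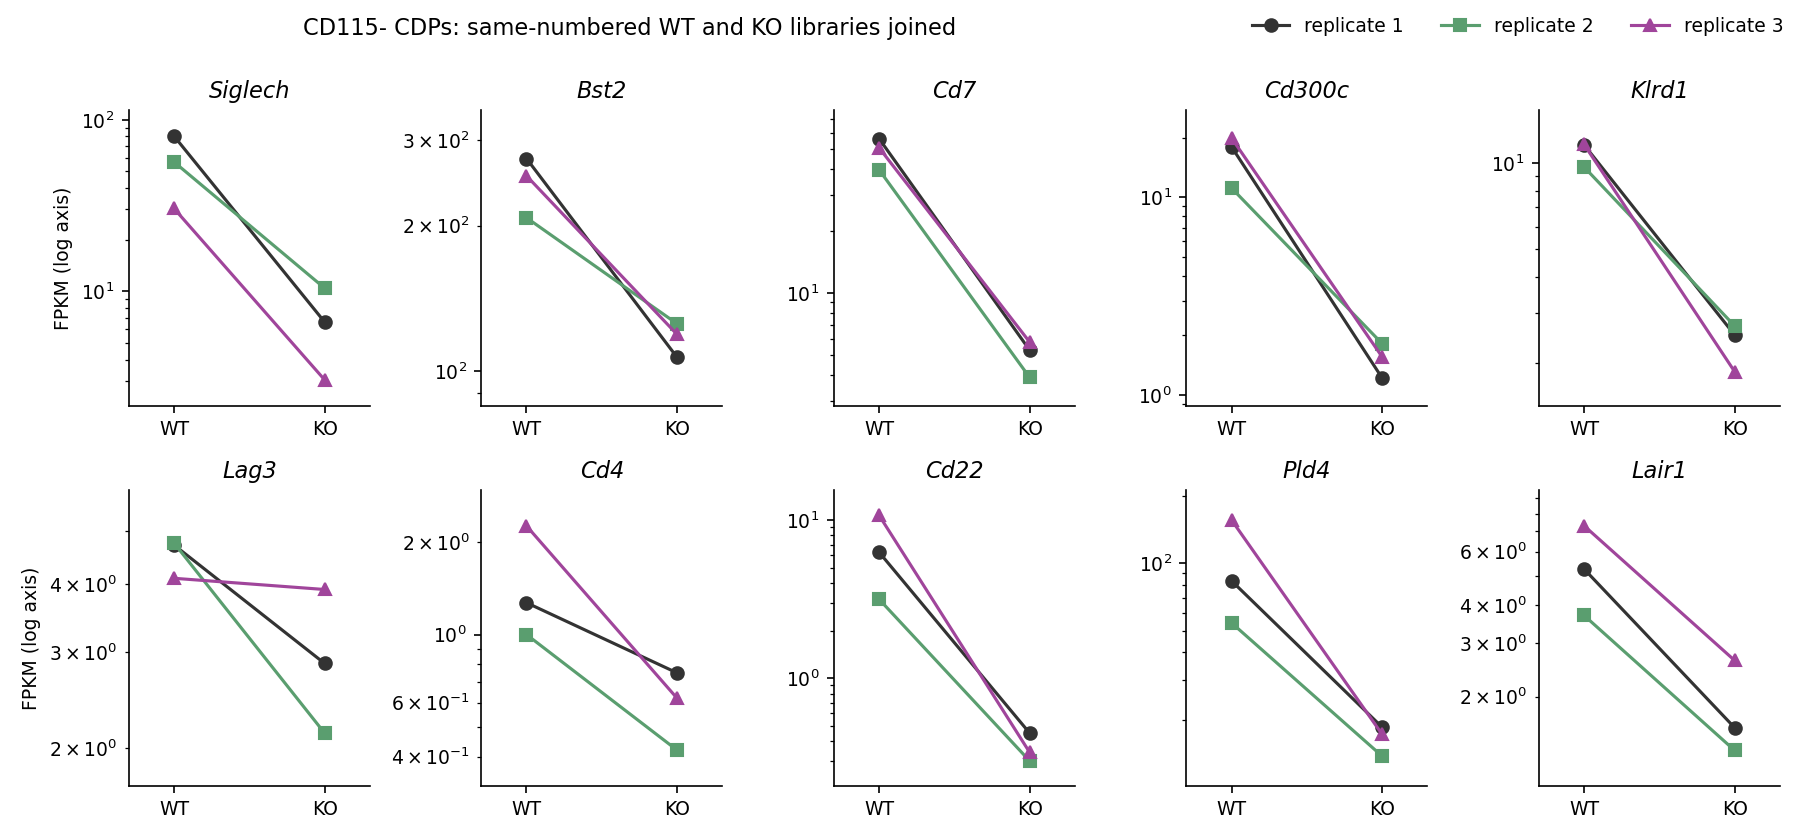
FPKM (log axis) of the 10 members in CD115- CDPs, with WT and KO-labelled libraries of the same replicate number joined. In all 10 panels each of the 3 lines falls from WT to KO. Replicate 3 (purple) is the lowest WT point for *Siglech* and *Lag3* and the highest for *Pld4*, *Cd22*, *Lair1*, *Cd4*, *Cd300c* and *Klrd1*.

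*Lag3* and *Cd4* were not called in CD115- CDPs with or without the block. *Lag3* had 4.72, 4.76 and 4.10 FPKM against 2.86, 2.13 and 3.91 FPKM (log2 fold change -0.50 ± 0.21, adjusted p = 0.483, and 0.126 with the block). *Cd4* had 1.27, 1.0 and 2.26 FPKM against 0.75, 0.42 and 0.62 FPKM (-0.63 ± 0.23, adjusted p = 0.428, and 0.0781 with the block). The groups did not overlap, yet the gap between the nearest libraries was small for *Lag3*, 4.10 against 3.91 FPKM.

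In MPPs 2 of the 9 members tested were called lower, *Pld4* and *Lag3*, where 1.32% of the 12372 genes tested were. *Cd22* was below the filter of a mean of 0.5 FPKM, with 0.42, 0.52 and 0.37 FPKM in WT and 0.11, 0.23 and 0.21 FPKM in KO-labelled libraries. The KO-labelled libraries lay below WT for 8 of the 10, *Cd22* included, as they did for 23.3% of tested genes. The median log2 fold change of the tested members was -0.557 and that of all tested genes -0.108. Leaving out WT 1 gave 0 calls (0.357% of all genes), leaving out WT 2, WT 3 or KO 2 gave 1 (0.381%, 0.349% and 0.703%), and leaving out KO 3 gave 3 (4.43%), so that the members' count moved with that of all genes. Without WT 1, 5 members were lower at an unadjusted p under 0.05 in limma, and 11.6% of all genes.

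*Pld4* was at 17.3, 16.5 and 16.1 FPKM in WT MPPs and at 6.27, 4.49 and 4.76 FPKM in the KO-labelled ones, a log2 fold change of -1.52 ± 0.14 (adjusted p = 0.00463). *Lag3* had 15.1, 13.2 and 14.9 FPKM against 8.26, 5.25 and 5.08 FPKM (-1.12 ± 0.19, adjusted p = 0.0301). The WT libraries varied little, with coefficients of variation of 3.72% and 7.23%. *Siglech* and *Cd4* passed the adjusted p but not the minimum fold change, so that 4 members passed on the adjusted p alone, as did 3.52% of tested genes in this direction. *Siglech* had 2.04, 1.59 and 1.88 FPKM against 0.46, 0.73 and 0.71 FPKM (-0.80 ± 0.13, adjusted p = 0.026, and 0.0597 with a block), and *Cd4* 3.51, 3.24 and 3.70 FPKM against 1.49, 0.86 and 1.5 FPKM (-0.99 ± 0.15, adjusted p = 0.026).

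The other 5 members did not pass either threshold in MPPs. *Cd7* had 7.55, 6.98 and 7.58 FPKM against 3.87, 4.37 and 6.03 FPKM (-0.56 ± 0.16, adjusted p = 0.117), and *Lair1* 4.83, 5.14 and 5.41 FPKM against 4.07, 3.08 and 4.01 FPKM (-0.38 ± 0.14, adjusted p = 0.162). *Bst2* had 101, 98.1 and 116 FPKM against 97.6, 86.8 and 91.2 FPKM (-0.19 ± 0.10, adjusted p = 0.264). *Bst2* was the most abundant member in MPPs and had one of the smaller fold changes. *Klrd1* had 2.09, 2.18 and 1.84 FPKM against 1.62, 1.16 and 2.02 FPKM (-0.24 ± 0.15, adjusted p = 0.352). *Cd300c* had 1.25, 0.45 and 0.88 FPKM against 0.73, 1.08 and 0.45 FPKM (-0.08 ± 0.21, adjusted p = 0.82), which corresponds to about 6.0 to 17.1 reads. The *Cd300c* libraries of both genotypes overlapped, and counting error is large at this depth.

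The difference in fold change between populations was tested in 1 model over the 18 libraries. The interaction of population and genotype had an adjusted p of at most 0.05 for 7 of the 9 members that passed the filter in every population, where 2.45% of 12421 genes did. *Cd22* is not counted, since its MPP values lay under that filter. *Pld4* (adjusted p = 0.0905) and *Cd4* (adjusted p = 0.0962) did not pass. With the replicate block they had 0.0255 and 0.03, where 8.67% of all genes passed, although the replicate numbers of MPPs did not meet the criterion for pairing. *Lag3* (adjusted p = 0.0253) did not pass without MPP WT 1 or WT 3 or CLP WT 1, WT 2 or KO 1, with adjusted p between 0.0521 and 0.0768. Between CLPs and MPPs 7 of these members differed in fold change, as did 1.94% of all genes in that direction. The difference was -4.44 ± 0.29 for *Cd300c* (adjusted p = 4.05e-07), whose MPP values stand on 17.1 reads or fewer, and -4.43 ± 0.28 for *Cd7* (adjusted p = 4.05e-07). For *Siglech* the difference between CLPs and MPPs was -3.31 ± 0.48 (adjusted p = 0.00089) and for *Bst2* -2.45 ± 0.16 (adjusted p = 4.05e-07). *Lair1*, *Klrd1* and *Pld4* passed this contrast too, with differences from -1.67 (*Pld4*, adjusted p = 0.0307) to -1.79 (*Lair1*, adjusted p = 0.00411). *Lag3* (-0.88 ± 0.29, adjusted p = 0.0999) and *Cd4* (-0.75 ± 0.28, adjusted p = 0.152) did not.

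Between CLPs and CD115- CDPs 4 members differed in fold change, against 0.378% of all genes in that direction. These were *Cd7* (-1.92 ± 0.28, adjusted p = 0.003), *Cd300c* (-1.78 ± 0.29, adjusted p = 0.00834), *Bst2* (-1.58 ± 0.16, adjusted p = 7.15e-05) and *Lag3* (-1.5 ± 0.29, adjusted p = 0.0279), each with the larger fall in CLPs. For *Klrd1* the difference was -0.10 ± 0.32 and for *Cd22* -0.03 ± 0.37. The KO-labelled mean of *Cd22* in CD115- CDPs, 0.363 FPKM, lay under the filter. Between CD115- CDPs and MPPs 4 members passed, *Bst2*, *Cd7*, *Cd300c* and *Klrd1*, against 0.258% of all genes. *Lag3* and *Cd4* had a smaller fall in CD115- CDPs than in MPPs, with differences of 0.62 ± 0.29 and 0.36 ± 0.28 that did not pass (adjusted p of 0.412 and 0.578).

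Across the populations the 10 genes had several orders of level. *Siglech* had the largest ratio of CLPs to MPPs in WT, with a mean 91.9 times higher in CLPs and a KO-labelled mean 13.7 times higher. Residual *Siglech* in KO-labelled CLPs, 8.67 ± 0.87 FPKM (SD, n = 3), was above all WT MPP libraries, as were *Klrd1* and *Cd22*. *Cd7* and *Cd300c* had WT CLP to MPP ratios of 19.2 and 48.1 and KO-labelled ratios of 0.736 and 1.12, so that the KO-labelled libraries of CLPs and MPPs were at like levels. For 5 members, *Bst2*, *Cd7*, *Lag3*, *Cd4* and *Lair1*, every KO-labelled CLP library was below every WT MPP library. *Lag3* and *Cd4* followed another order than the rest. Their WT means were highest in CLPs (18.2 and 6.61 FPKM), next in MPPs (14.4 and 3.48 FPKM) and lowest in CD115- CDPs (4.53 and 1.51 FPKM), with no overlap between these neighbours in the order. WT *Lair1* did not separate CD115- CDPs (3.70 to 7.30 FPKM) from MPPs (4.83 to 5.41 FPKM), and WT *Cd22* overlapped between CLPs and CD115- CDPs.

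Over the 18 libraries the log2(FPKM + 1) of the members correlated pairwise with a Pearson r between 0.248 (*Siglech* with *Lag3*) and 0.978 (*Bst2* with *Cd300c*), with a median of 0.871 over 45 pairs. These libraries share populations and genotypes. After removing group means the median over the pairs was 0.429 for CD115- CDPs, 0.144 for CLPs and 0.0305 for MPPs. The median was thus highest in CD115- CDPs, but its pairs ran from -0.843 (*Klrd1* with *Lag3*) to 0.979 (*Cd4* with *Pld4*). Some members therefore deviated in opposite directions there, and the difference between populations was not tested. Genes whose pattern over the 18 libraries was most like that of the members were sought among 11659 genes. For *Siglech* these were *Mycl* (r = 0.972), *Sema4c*, *Mknk1*, *Prr5* and *Nucb2*. For *Cd7* they were *Ctsb* (r = 0.984), which encodes the lysosomal protease cathepsin B, *Lrrc16a*, *Fgr*, *Gsn* and *Cyth4*. For the mean of the 10 members they were *Tbc1d8* (r = 0.987), *Fgr*, *Gsn*, *Lrrc16a* and *Cyth4*.

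*Mycl*, a MYC family transcription factor, had 33.6, 32.3 and 30.2 FPKM in WT CLPs and 3.10, 3.35 and 3.61 FPKM in KO-labelled ones (log2 fold change -2.92 ± 0.11, adjusted p = 1.88e-06). *Ctsb* had 220.1, 232 and 221 FPKM against 36.8, 37.1 and 35.3 FPKM (-2.59 ± 0.09, adjusted p = 1.57e-06). *Fgr*, a SRC family kinase of myeloid cells, had 38.2, 38.9 and 33.02 FPKM against 1.87, 1.43 and 1.06 FPKM. The groups of these 3 genes were far apart. They were chosen for a pattern like that of the members in the same libraries, so this gap is no separate result.

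The regulators of pDC genes were given by a list of 11 transcription factors. CLPs had 5 of them called lower and 0 higher, with a list median of -0.622, where 2.84% of all genes were called lower. CD115- CDPs had 0 called without and 3 with the block (median -0.595), against 0.0654% and 1.46% of all genes. MPPs had 0 (median -0.407). *Spib* was at 120.0, 99.0 and 95.8 FPKM in WT and at 1.51, 2.17 and 1.97 FPKM in KO-labelled CLPs (log2 fold change -5.20 ± 0.13, adjusted p = 5.37e-07), a larger change than that of *Cd7*. *Irf8* had 1097, 1132 and 992 FPKM against 189.5, 151 and 147 FPKM (-2.72 ± 0.13, adjusted p = 6.26e-06). *Runx2* had 185, 101 and 109 FPKM against 43.7, 29.7 and 39.3 FPKM (-1.74 ± 0.24, adjusted p = 0.00183). In CD115- CDPs the same 3 had the largest changes of the list, with blocked adjusted p of 0.00528 (*Spib*), 0.0078 (*Irf8*) and 0.00364 (*Runx2*). In MPPs *Irf8* (-1.55, adjusted p = 0.0774) and *Cbfa2t3* (-0.86, adjusted p = 0.0742) did not pass, and *Irf7* passed the adjusted p alone (-0.90, adjusted p = 0.019).

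Of 20 further pDC genes, 14 of the 20 tested in CLPs were called lower and 0 higher, where 2.84% of all genes were called lower. In CD115- CDPs 1 of 19 tested was called lower without the block and 9 with it, against 0.0654% and 1.46% of all genes. In MPPs 1 of 18 was called lower, against 1.32%. The largest changes in CLPs were those of *Ly6c2* (-4.45 ± 0.30), *Clec10a* (-3.72 ± 0.19) and *Upb1* (-3.62 ± 0.12). *Rnase6*, an antimicrobial ribonuclease, was the gene called in MPPs, with 16.2, 16.6 and 18.6 FPKM in WT and 5.18, 5.02 and 9.11 FPKM in KO-labelled libraries (-1.32 ± 0.22, adjusted p = 0.0288). It was not called without WT 1, WT 2, WT 3 or KO 2. *Itgax*, the gene called in CD115- CDPs, was not called there when any 1 library was left out, as few or no genes were. The list has *Itgax* and *Ly6d* in common with the lists of progenitor genes below.

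Signalling partners of the receptors were described next. Of 9 ITAM adaptors and kinases 3 were called lower in CLPs, where 2.84% of all genes were. They were the adaptors *Tyrobp* and *Fcer1g* and the signalling adaptor *Pik3ap1*. *Tyrobp* encodes DAP12, through which SIGLECH signals. It had 366, 448 and 392 FPKM in WT and 39.0, 62.1 and 60.6 FPKM in KO-labelled CLPs (log2 fold change -2.90 ± 0.18, adjusted p = 2.37e-05). *Fcer1g* had 115, 159.8 and 126 FPKM against 38.3, 31.6 and 31.0 FPKM (-1.95 ± 0.14, adjusted p = 6.09e-05). In CD115- CDPs 0 of the 9 were called without the block and 2, *Tyrobp* and *Fcer1g*, with it, against 0.0654% and 1.46% of all genes. Of the 4 genes that act on ITIM receptors 0 were called in any population. *Ptpn6*, the phosphatase SHP-1, had a log2 fold change of -0.81 ± 0.10 in CLPs (adjusted p = 0.0015), short of the minimum. In CD115- CDPs *Ptpn6* had -0.62 (adjusted p = 0.559, and 0.0236 with the block). The other 3 genes did not pass the adjusted p in any population, with or without the block.

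Relatives of the members were measured as well. Of the other 6 Siglec genes in the list 4 were tested in CLPs and 1, *Siglecg*, was called lower (-1.47 ± 0.16, adjusted p = 0.00065). *Cd33* (0.81 ± 0.17, adjusted p = 0.0136), *Siglece* (0.64 ± 0.19, adjusted p = 0.0587) and *Siglecf* (0.54 ± 0.13, adjusted p = 0.028) went the other way, and 0 were called higher. The list median was 0.588. Of 6 CD300 genes 3 were tested in CLPs and 1, *Cd300lf*, an inhibitory member, was called lower, from 6.70, 6.64 and 5.48 FPKM to 0.29, 0.53 and 0.28 FPKM (-2.41 ± 0.14, adjusted p = 1.37e-05). *Cd300a* (-0.97 ± 0.13, adjusted p = 0.0016) was just short of the minimum fold change and *Cd300lb* showed -0.06 ± 0.22. Of the phospholipase D relatives *Pld3*, which has the same exonuclease activity as *Pld4*, had -0.02 ± 0.12 in CLPs. *Pld2*, the other relative tested there, was at 3.93, 4.76 and 3.28 FPKM in WT and at 1.46, 1.73 and 2.16 FPKM in KO-labelled libraries (-0.84, adjusted p = 0.0091), short of the minimum fold change. *Klrk1*, an NKG2 gene beside *Klrd1* whose product forms its own dimers, fell from 1.98, 1.76 and 1.68 FPKM to 0.13, 0.32 and 0.18 FPKM in CLPs (-1.22 ± 0.12, adjusted p = 0.000435), whereas *Klrc1*, *Klrc2* and *Klrc3*, the NKG2 partners of CD94, were below the filter in all 3 populations.

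**Figure D4:**
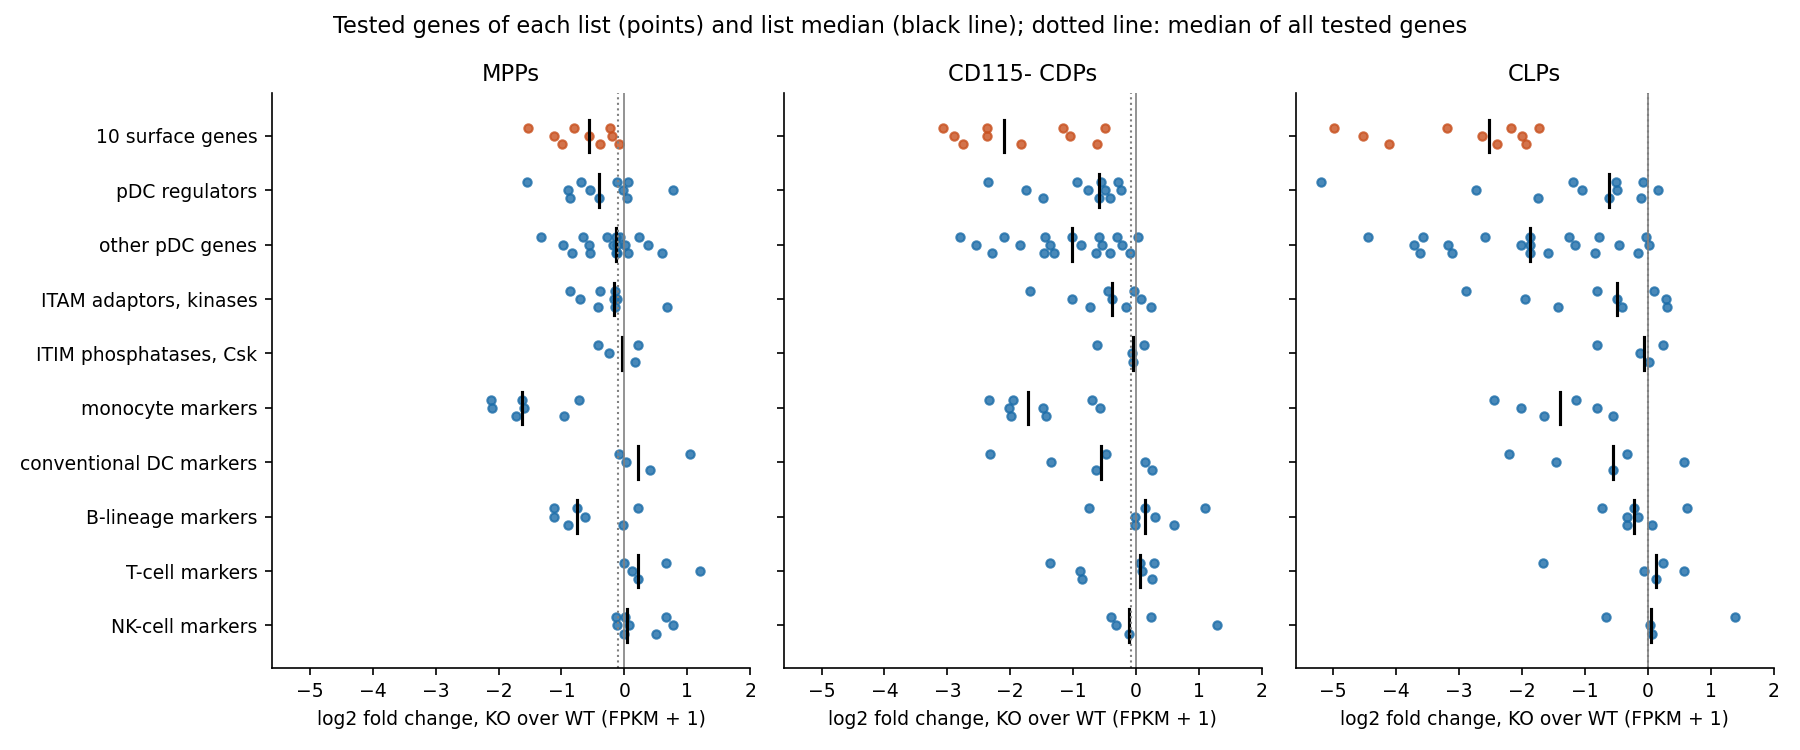
Log2 fold changes of KO-labelled over WT libraries, on log2(FPKM + 1), for the tested genes of each list in the 3 populations, with the list median as a black line and the median of all tested genes as a dotted line. The 10 surface genes (orange) have medians of -0.557, -2.10 and -2.52, and the monocyte markers lie to the left in each population.

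The genes next to the members on the chromosome were compared in CLPs. The nearest listed gene on either side gave 18 genes other than members, of which 11 passed the filter. In CLPs 6 of these 11 were called lower and 0 higher, where 2.84% of all tested genes were called lower. Of the 6, *Gpr162*, *Klrk1* and *Lilra6* passed the filter through their WT libraries, with KO-labelled means of 0.24, 0.21 and 0.0933 FPKM. *Ptms* (parathymosin), 1.24 kb from *Lag3*, was at 225, 248 and 224 FPKM in WT and at 29.8, 34.8 and 34.4 FPKM in KO-labelled CLPs (-2.78 ± 0.10). *Gpr162*, an orphan receptor 0.5 kb from *Cd4*, had 4.82, 4.69 and 4.50 FPKM against 0.23, 0.27 and 0.22 FPKM (-2.19 ± 0.11). *Lag3*, *Cd4* and the genes on both sides of them were thus all lower. The other 4 were *Tubgcp5* beside *Siglech* (-1.14), *Mvb12a* beside *Bst2* (-1.05), *Klrk1* beside *Klrd1* (-1.22) and *Lilra6* beside *Lair1* (-1.55). *Csnk1d* beside *Cd7* (0.01), *Cd300lb* beside *Cd300c* (-0.06), *Cep170b* and *BC022687* beside *Pld4* (0.01 and 0.16) and *Plvap* on the other side of *Bst2* (0.20) were not called. In CD115- CDPs 0 of 10 tested were called without the block and 2, *Ptms* and *Klrk1*, with it. Of all genes there 0.0654% and 1.46% were called lower. In MPPs the count was 0 of 11, where *Ptms* had -0.70 ± 0.15 (adjusted p = 0.06).

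**Figure D5:**
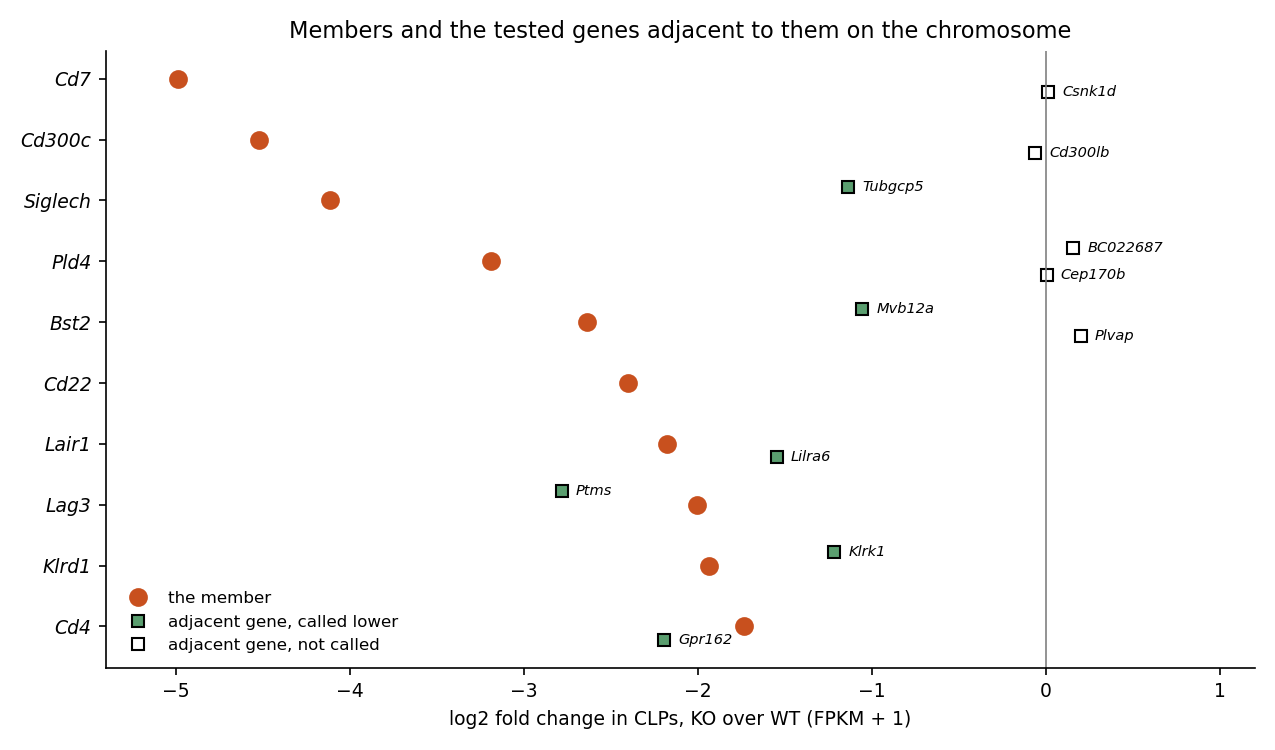
Log2 fold change in CLPs of each member (orange circles) and of the tested genes adjacent to it (squares, green where called lower). *Ptms* and *Gpr162* lie further to the left than *Lag3* and *Cd4*, the members beside them. The tested genes beside *Cd7*, *Cd300c* and *Pld4* lie near 0.

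Several of the 10 genes are also expressed outside pDCs, so markers of other cells were measured beside them. Monocyte markers moved with the members. Their summed FPKM was 98.9, 97.3 and 92.2 in WT MPPs against 22.7, 17.8 and 32.7 in KO-labelled ones, 298.5, 199 and 1022 against 63.8, 51.0 and 239.5 in CD115- CDPs, and 451, 317 and 305 against 64.8, 65.9 and 79.3 in CLPs. The lineage antibodies of the sort included CD11b. Of 7 markers tested in MPPs 4 were called lower, and 4 of 6 tested in CLPs, where 1.32% and 2.84% of all genes were. In CD115- CDPs 8 were tested, and 0 were called without and 6 with the block, where 0.0654% and 1.46% of all genes were. *Mpeg1* was the most abundant, and no marker of the list was at 0 in all libraries of a group. CD115- CDP replicate 3 held the highest monocyte sum in both genotypes and the lowest sum of CLP genes, 419.7 and 701 FPKM, against 1082 to 1408 FPKM in replicates 1 and 2. The part of these genes in the members' values was not tested.

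T-cell and B-lineage markers had little change in sum in CLPs. Of the T-cell markers 5 were tested in CLPs and 1, *Thy1*, was called lower (-1.67 ± 0.15), while the summed FPKM of the 8 was 89.6, 100.2 and 101.4 in WT and 102, 98.2 and 90.6 in KO-labelled CLPs, with *Lck* the most abundant. *Cd3e*, below the filter in every population, was at 0.19, 0.22 and 0.18 FPKM in WT CLPs and at 0 in the KO-labelled ones. Its KO-labelled libraries lay below WT in MPPs and CD115- CDPs too. Of the 8 T-cell markers in CLPs, 2 had all KO-labelled libraries below WT and 1, *Lck*, had all above. For CD115- CDPs these counts were 4 and 0, and for MPPs 3 and 1 (*Cd5*). Of all tested genes 18.6%, 10.6% and 23.3% had all KO-labelled libraries below WT, with the populations ordered alike. The part of T cells in the *Cd4* values was not tested. Of the B-lineage markers 7 were tested in CLPs and 0 were called, with sums of 273, 495 and 654 FPKM against 231, 452 and 480.1 FPKM. Of the NK-cell markers 4 were tested in CLPs and 1, *Nkg7*, was called higher (1.39 ± 0.19, adjusted p = 0.00224), with sums of 23.3, 34.2 and 39.3 FPKM against 68.7, 84.9 and 77.9 FPKM. *Nkg7* made up most of these sums, with 19.6, 30.5 and 34.97 FPKM against 66.9, 81.6 and 74.2 FPKM. *Il2rb* was at 1.82, 1.63 and 1.67 FPKM against 0.39, 1.01 and 0.78 FPKM (-0.66 ± 0.16, adjusted p = 0.025). *Klrd1*, which NK cells share, was lower in the same libraries. In MPPs 7 B-lineage markers were tested and 0 called, with a list median of -0.758.

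The sorted populations were checked against the genes of their gates. *Flt3* and *Cd34* were expressed throughout, and *Kit* was highest in MPPs, with 71.6, 74.8 and 71.7 FPKM in WT and 29.9, 34.7 and 49.9 FPKM in KO-labelled libraries (-0.94 ± 0.18, adjusted p = 0.0434). *Ly6a*, which encodes Sca-1, was at 59.3, 60.2 and 76.4 FPKM against 39.3, 33.9 and 43.1 FPKM in MPPs (-0.73 ± 0.14, adjusted p = 0.0425). In CLPs *Kit* (0.60 ± 0.12, adjusted p = 0.0124) and *Cd34* (0.58 ± 0.10, adjusted p = 0.00611) differed the other way. These 4 differences passed the adjusted p but not the minimum fold change, and their part in the members' values was not tested. *Il7r*, which encodes the CD127 used to sort CLPs, was at 63.0, 32.6 and 33.9 FPKM in WT and 37.6, 38.8 and 43.1 FPKM in KO-labelled CLPs, without a call. The CD115- CDPs were sorted without CD115, CD127 and CD11c on the surface. Their transcripts *Csf1r* (57.0, 39.1 and 137 FPKM in WT) and *Itgax* (23.3, 15.7 and 20.9 FPKM) were nevertheless present, and *Csf1r* was higher there than in WT MPPs (15.6, 15.5 and 13.2 FPKM) and CLPs (26.3, 24.3 and 14.5 FPKM). *Itgax* was called lower with the members in CD115- CDPs (-1.85 ± 0.20, adjusted p = 0.0499) and in CLPs (-3.12 ± 0.14, adjusted p = 5.12e-06).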

How the data were processed

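Single-end 50-base reads were cleaned with SOAPnuke by the authors, and FPKM came from Bowtie2 2.2.5 and RSEM 1.2.12. HISAT2 2.0.4 and mm10 are also named in the submitters' processing notes. The deposited FPKM, 1 table for each population, have 2 decimals. A gene was tested if its 6 libraries averaged 0.5 FPKM or more, on log2(FPKM + 1) with limma 3.58.1 (R 4.3.3, lmFit and eBayes with a trend) for each population, with Benjamini-Hochberg adjustment over all genes tested. Calls required both an adjusted p up to 0.05 and a log2 fold change no smaller than 1 in size. This scale understates changes of weak genes. The interaction was an F test over 18 libraries with an intercept for each population.

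WT and KO-labelled libraries share the replicate numbers 1 to 3. Same-numbered deviations correlated at 0.437 to 0.79 in CD115- CDPs and 0.131 to 0.4 in CLPs. These met the criterion for pairing (above 0.1 in every pair), and MPPs, at 0.0382 to 0.482, did not. Differently numbered libraries reached 0.663 in CD115- CDPs (WT 2 with KO 1) and 0.234 in CLPs (WT 3 with KO 2). The criterion thus does not establish matched pairs. The fits were also run on simulated data, but no outcome is given here, so this does not vouch for them. Promoters and gene positions were from RefSeq (GRCm38.p6). Of the 50-base windows of *Cd22* and *Cd7* transcripts, 9.49% and 8.04% also occur in other genes, so their values are less certain. The gene sharing the most windows was *Gm29439* for *Cd22* and *Gm11775* for *Cd7*. Strand was not stated.

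The members, lists and tests were chosen with earlier results of these data known. Named besides the members were the 3 tested genes of each list with the largest changes, adjacent genes, and the 5 genes most alike in pattern. Other genes, named for their level, were chosen after their values were seen. Alternatives were a pseudocount of 0.1, no filter, a filter at 5 FPKM, TPM, median ratios, the replicate block, no minimum fold change, and each library left out.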

Additional observations from a re-analysis of the deposited data

Results flagged for a closer look

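The interaction test (limma F test over 18 libraries) of the fold change in MPPs, CD115- CDPs and CLPs passed for 7 of the 9 members that met the filter in every population. The adjusted p was 1.05e-06 for *Bst2*, 1.05e-06 for *Cd7*, 1.09e-06 for *Cd300c*, 0.00304 for *Siglech*, 0.0108 for *Klrd1*, 0.0138 for *Lair1* and 0.0253 for *Lag3*. *Cd22* had 0.00478, but it was under the filter in MPPs and entered the model through the other populations, so its value is not read as a difference from MPPs. On log2(FPKM + 1) the fold change of each of the 7 was lowest in CLPs. For *Klrd1* that order does not hold on FPKM, where KO-labelled means were 24.0% of WT in CLPs and 21.5% in CD115- CDPs. *Lag3* had its smallest fall in CD115- CDPs, the other 6 in MPPs. *Lag3* lost this result under the pseudocount of 0.1 (adjusted p = 0.0618) and without any one of 5 libraries, with adjusted p from 0.0521 (without CLP WT 1) to 0.0768 (without CLP WT 2). Groups of 3 libraries are too small for a test of single outlying libraries.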

How the results depend on the processing

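In CLPs the count of members called lower was 10 under every alternative run except the filter at a mean of 5 FPKM, where 8 members were tested and 8 were called; with the replicate block it was 10. In MPPs the count of 2 became 4 with a pseudocount of 0.1, with TPM and with no minimum fold change, where 1.98%, 2.01% and 3.52% of all genes were lower against 1.32%, 1 with no filter (0.553%) and 1 with median ratios (0.963%), and 0 to 3 when 1 library was left out (0.349% to 4.43%). In CD115- CDPs the count of 3 became 1 with no filter (4 of all genes against 8), 8 with the replicate block (178), 8 without replicate 3 of both genotypes (156), and 0 to 1 when 1 library was left out (0 to 5), so the 0 is that of the whole fit. The interaction count of 8, *Cd22* included, was 10 with the replicate block, where 8.67% of all genes passed against 2.45%, and 7 to 10 when 1 library was left out, where 1.24% to 5.37% did. The causes were not tested. In MPPs, where the numbers did not pair the libraries, the replicate block gave 2 members and raised the adjusted p of *Siglech* to 0.0597. When 1 library was left out, *Cd300c* in MPPs ranged from -0.25 to 0.071 on the log2 scale, above 0 without WT replicate 1 (0.071) and without KO replicate 3 (0.051), and *Trim33* in MPPs from -0.45 to 0.12, above 0 without KO replicate 3 (0.12). No other fold change of a member or of *Trim33* turned. The other named genes were not run for this. Of the counts over the gene lists 1116 stayed within 1.5 times and 68 moved. Without MPP KO replicate 3, 548 genes were lower and 368 higher in MPPs, against 163 and 20 with it. Median ratios moved the median change of all MPP genes from -0.108 to -0.0044 and TPM that of CD115- CDPs from -0.0748 to -0.191.

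Depth limits the weakest values: 3 replicates, 17.1 reads or fewer behind *Cd300c* in MPPs, and FPKM in place of counts.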

Other observations

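Markers of conventional DCs were also lower in part. Of 8 such markers 5 were tested in CLPs and 2 were called lower, where 2.84% of all genes were. *Clec9a*, a receptor for dead cells on the cDC1 lineage, was at 4.89, 3.81 and 2.60 FPKM in WT and at 0, 0.03 and 0 FPKM in KO-labelled CLPs. *Cadm1* was at 2.16, 1.63 and 1.67 FPKM against 0, 0.01 and 0.04 FPKM. The summed FPKM of the 8 did not follow them, with 60.4, 72.2 and 79.9 in WT and 65.7, 67.8 and 94.3 in KO-labelled CLPs. *H2-Ab1*, the most abundant, went the other way, from 28.5, 36.3 and 41.9 FPKM to 49.4, 47.7 and 62.8 FPKM. Its log2 fold change of 0.58 ± 0.16 was short of the minimum (limma adjusted p = 0.0479, and 0.00781 with the block). *Ccr7* (-0.55) and *H2-Aa* (-0.33) were not called. Among the genes of CLPs *Rag1* was called higher (log2 fold change 1.67 ± 0.11, adjusted p = 2.54e-05) and *Ly6d* lower (-1.87 ± 0.17, adjusted p = 0.000201). *Dntt* had 0.99 ± 0.13, just short of the minimum.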
